A study of Mus musculus with 7 samples.

Results

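The nuclear genes for the subunits of oxidative phosphorylation were taken by symbol from a table of raw gene counts: every row named Nduf followed by a, b, c, s or v and a number, Sdha to Sdhd, the Uqcr symbols, Cyc1, Cycs, Cox4 to Cox8 with their isoforms, and the Atp5 symbols. The rule found 85 of 35976 gene symbols. By name, 35 belong to complex I, 4 to complex II, 9 to complex III, 19 to complex IV and 17 to complex V, and Cycs encodes the mobile carrier cytochrome c. Ndufa4 was placed with complex IV, where its protein is now known to sit. Of the members, 3 are not known as subunits: Cox7a2l, a supercomplex assembly factor, and Atp5s and Atp5sl, whose RefSeq symbols are now Dmac2l and Dmac2.

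The respiratory chain passes electrons from NADH (complex I) and succinate (complex II) through ubiquinone, complex III and cytochrome c to oxygen at complex IV, and the proton gradient so built drives ATP synthesis at complex V. Complexes I, III, IV and V are assembled from nuclear subunits and from subunits encoded in mitochondrial DNA, whereas complex II is wholly nuclear. Neurons depend on this pathway for most of the ATP that firing and synaptic transmission consume.

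Neurons were isolated from the amygdala of C57BL/6J males. Cas9 was expressed under the hSyn promoter, which is active in neurons, from an adeno-associated virus that also served to deliver a guide against the Rosa locus (sgRosa, 4 control libraries) or against the nuclear receptor gene Nr2f2 (sgNr2f2, 3 libraries). Both groups had more than 2 weeks of expression, tube restraint on 7 days, fear conditioning on 1 day and extinction on 3 days before papain digestion and magnetic neuron isolation, so no library is from an unstressed or an uninjected mouse. The labels do not give the age of the mice or say whether a library is 1 animal or a pool, and p-values here measure only the spread between these libraries.

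Total counts were 6266897 in sgRosa replicate 4 and between 15335076 and 20928677 in the other 6 libraries. Nr2f2 had 422, 305, 166 and 96 counts in the sgRosa libraries and 196, 214 and 191 in the sgNr2f2 libraries, and its log2 fold change was -0.36 (SE 0.37, unadjusted p = 0.355, adjusted p = 0.905 in edgeR's quasi-likelihood test), with groups that overlapped. Cas9 cutting need not lower the RNA of its target, so this count does not check the guides. Markers of neurons took 0.0367% to 0.151% of the counts, while 9 oligodendrocyte markers, led by Mbp, took 13.6%, 29.3%, 29.0% and 2.68% in sgRosa and 29.7%, 17.9% and 32.2% in sgNr2f2. Markers of red blood cells took 3.70% of the counts of sgRosa replicate 4 and at most 0.316% of those of any other library. Neuron markers thus took a smaller share of the counts than oligodendrocyte markers in every library. Most of the oligodendrocyte share came from Mbp and Mobp, and shares of counts from unlike marker sets do not give the proportions of cells. sgRosa replicate 4 stands apart in depth and in the oligodendrocyte and red blood cell markers. Fold changes of most genes named below are given with and without that library. The part of these differences between libraries in the results was not tested.

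Of all counts, the members together took 0.692%, 0.707%, 0.687% and 1.41% in the sgRosa libraries, in order of replicate, and 0.582%, 0.601% and 0.554% in the sgNr2f2 libraries. The share was higher in every sgRosa library than in any sgNr2f2 library, and highest in sgRosa replicate 4. On levels scaled by TMM (CPM, the count scaled to a common effective library total), a scaling that gives little weight to a few very abundant genes, the summed member level was 4976, 7574, 8199 and 12019 CPM in sgRosa and 6380, 5559 and 7015 CPM in sgNr2f2. On that scale the groups overlapped, because sgRosa replicate 1 lay lowest of all 7 libraries. In bulk RNA, fewer cells of a type and less RNA per cell cannot be told apart.

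A filter on low counts kept 81 of the 85 members among 14412 genes tested. Of these, 69 (85.2%) had a lower fitted level in sgNr2f2, where 56.2% of all genes tested did, and the median log2 fold change was -0.52 for the members and -0.11 for all genes. No member passed an adjusted p of 0.05 in edgeR's quasi-likelihood test with Benjamini-Hochberg adjustment over all genes, and the background is also 0%, since no gene of the 14412 passed. The smallest adjusted p of a member was 0.868. DESeq2 and limma-voom on all 7 libraries called no member either. At an unadjusted p under 0.05, 3 members were lower (3.70% of those tested, where 2.82% of all genes were) and 0 were higher (2.18% of all genes). The 2 groups did not overlap for 6 members, all lower in sgNr2f2 (7.41%, where 3.9% of all genes were lower without overlap). For 0 members they did not overlap with sgNr2f2 higher, where 4.41% of all genes did so.

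Without sgRosa replicate 4, 59 members (72.8%) were on the lower side, where 52.5% of all genes were. The median then was -0.15 for the members and -0.03 for all genes. The number at an unadjusted p under 0.05 went up to 13 lower (16% of the members, where 4.88% of all genes were) and stayed at 0 higher (6.41% of all genes). edgeR's adjusted test called 0 members in these 6 libraries, and limma-voom 0. DESeq2 called 1, Cox7c, where it called 0.824% of all genes lower and 1.82% higher. Between the sgNr2f2 libraries and sgRosa replicates 1 to 3 the levels did not overlap for 15 members with sgNr2f2 lower, where 8.93% of all genes were so, and for 4 with sgNr2f2 higher, where 9.15% were. The median shift of the set thus became smaller without that library. Members lower without overlap went from 6 to 15, and the share of all genes so placed also rose, from 3.9% to 8.93%. Those higher without overlap went from 0 to 4, and that share of all genes from 4.41% to 9.15%. At an unadjusted p under 0.05 in edgeR's test, lower members went from 3 to 13, where all genes went from 2.82% to 4.88%.

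**Figure D1:**
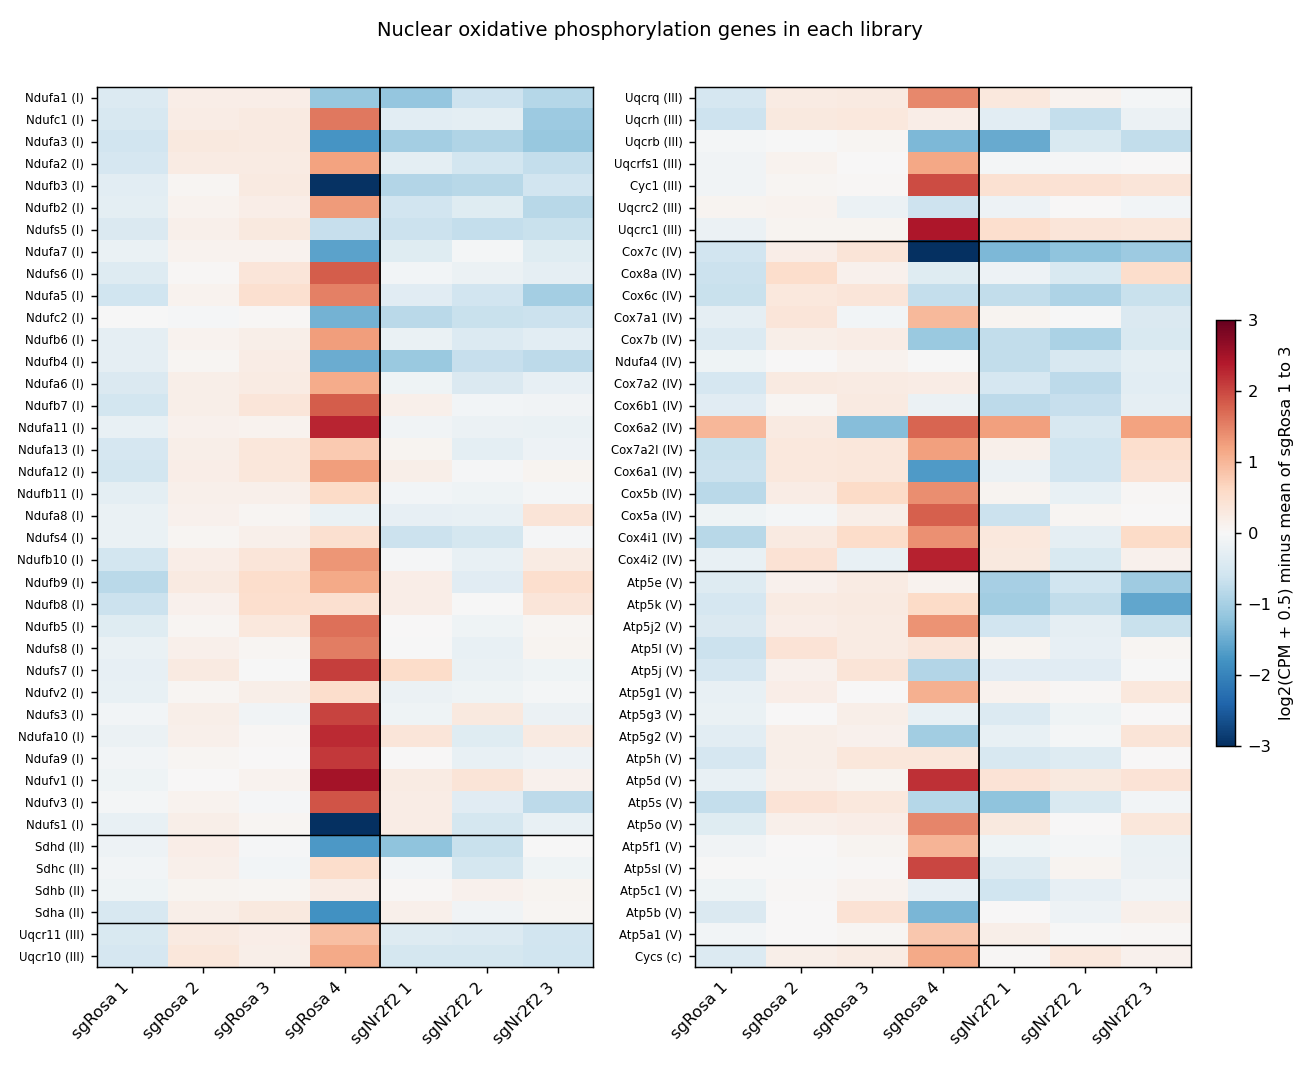
Level of 80 of the 81 tested members (rows, ordered by complex and, within a complex, by coding length from short to long) in each library (columns), as log2(CPM + 0.5) minus the mean of sgRosa replicates 1 to 3, with colours capped at 3 in either direction. The column of sgRosa replicate 4 holds both the strongest reds and the strongest blues, and in the sgNr2f2 columns the blues gather among the short genes at the top of complexes I, IV and V.

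Complex I had the lowest median log2 fold change of the 5 complexes in all 7 libraries, -0.66 with 31 of 35 members lower, against -0.13 in complex II, -0.49 in complex III, -0.54 in complex IV and -0.31 in complex V. Without sgRosa replicate 4 the medians were -0.15, -0.12, -0.08, -0.17 and -0.15 in the same order, and they no longer set complex I apart. These medians describe the sets and carry no test. Single fold changes ran from -1.21 to 0.21 in complex I, from -0.40 to 0.29 in II, from -0.96 to 0.06 in III, from -1.22 to 0.17 in IV and from -1.30 to 0.27 in V.

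**Figure D2:**
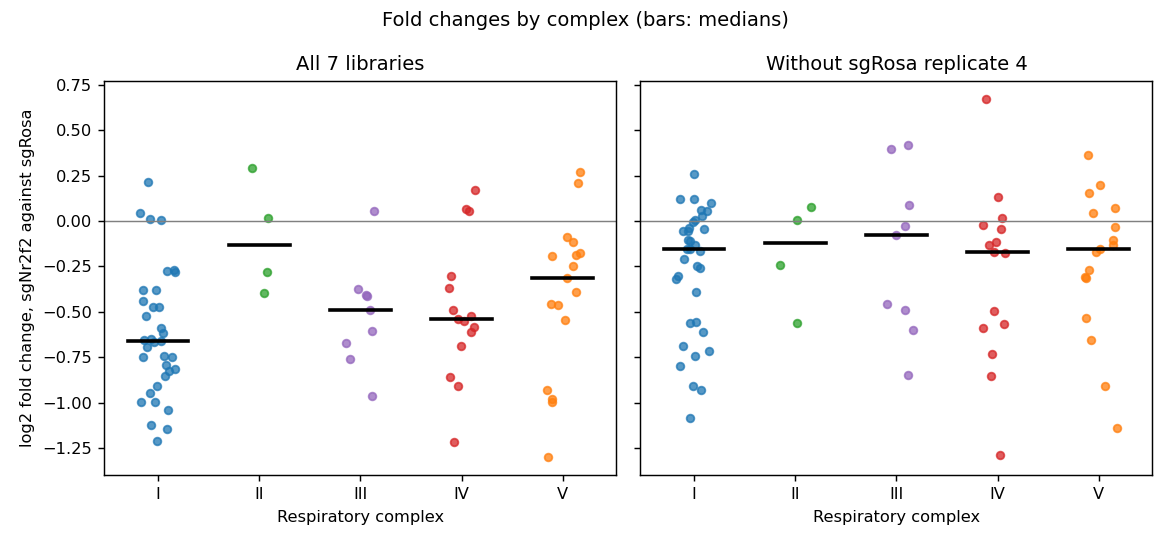
log2 fold change of each tested member (points), sgNr2f2 against sgRosa, by complex, with all 7 libraries at left and without sgRosa replicate 4 at right, and bars at the medians. The medians run from -0.66 to -0.13 at left and from -0.17 to -0.08 at right, while members below -0.5 occur in complexes I, III, IV and V in both panels.

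In complex I, Ndufb2, a small accessory subunit of the membrane arm (chr6:39592565-39599843, build GRCm38), was measured at 27.4, 36.5, 38.9 and 82.3 CPM in sgRosa and at 22.5, 26.1 and 18.8 CPM in sgNr2f2. The groups did not overlap, and the gap between them was small, from 27.4 down to 26.1 CPM. Its log2 fold change was -1.04 (SE 0.47, unadjusted p = 0.0486, adjusted p = 0.868 by edgeR) and -0.61 (SE 0.25, adjusted p = 0.416) without sgRosa replicate 4. Ndufa5, an accessory subunit of the peripheral arm, had 51.2, 83.3, 108 and 223 CPM in sgRosa and 61.4, 51.6 and 37.6 CPM in sgNr2f2, so that the groups overlapped through sgRosa replicate 1. Ndufc1, another small accessory subunit, had 35.7, 57.9, 59.8 and 149 CPM against 39.9, 40.9 and 23.3 CPM, with overlap through the same library. Ndufa2, an accessory subunit with a thioredoxin-like fold, had 49.9, 83.3, 84.4 and 164 CPM against 57.1, 48.0 and 43.0 CPM, and overlapped likewise. The log2 fold changes of these last 3 genes were -1.21, -1.12 and -0.95 with all libraries and -0.69, -0.56 and -0.56 without sgRosa replicate 4, none past the adjusted threshold.

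The complex I members with the highest counts behaved otherwise. Ndufb9, an accessory subunit of the membrane arm, had 143, 305, 365 and 554 CPM in sgRosa and 288, 199 and 359 CPM in sgNr2f2 (log2 fold change -0.28, and 0.06 without sgRosa replicate 4). Ndufb8, from the same arm, had 104, 177, 230 and 225 CPM and 187, 160 and 209 CPM, with a log2 fold change of 0.01, and of 0.12 without that library. In both genes the sgNr2f2 libraries lay inside the range of the sgRosa libraries.

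Split by role after the values were seen, the 7 nuclear core subunits of complex I, which make up the NADH-oxidizing and ubiquinone-reducing peripheral arm, had a median log2 fold change of -0.66 with all libraries and of 0.01 without sgRosa replicate 4, with 3 of 7 lower. The 28 accessory subunits had medians of -0.66 and -0.25, with 24 of 28 lower without sgRosa replicate 4. Of the 28 accessory subunits, 7 were lower at an unadjusted p under 0.05 in edgeR's test on those 6 libraries, where 4.88% of all genes were. None of the core subunits was, and 7 genes are too few for that absence to differ from the share of all genes. Of the 7 accessory subunits at that p, Ndufb2 is described above. The other 6, named here after their values were seen, are Ndufa3 (log2 fold change -1.08), Ndufb4 (-0.93), Ndufa1 (-0.91), Ndufb3 (-0.80), Ndufs5 (-0.74) and Ndufc2 (-0.72). Ndufa3, a small membrane-arm subunit and the lowest of them, had 40.1, 74.4, 73.3 and 17.3 CPM in sgRosa and 29.6, 32.0 and 27.1 CPM in sgNr2f2. Its sgNr2f2 libraries lay below sgRosa replicates 1 to 3 and above sgRosa replicate 4. The other 16 accessory subunits had log2 fold changes from -1.15 (Ndufa11) to 0.04 (Ndufa8) with all libraries and from -0.39 (Ndufs4) to 0.12 (Ndufa10) without that library.

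Complex II, which links the citric acid cycle to the chain, showed the smallest spread of fold changes. Sdhb, the iron-sulfur subunit, had 76.0, 87.3, 85.7 and 97.3 CPM in sgRosa and 84.5, 90.8 and 87.7 CPM in sgNr2f2 (log2 fold change 0.02, 95% confidence interval -0.81 to 0.84, and 0.08 without sgRosa replicate 4). Sdha, the flavoprotein that oxidizes succinate, had 190, 300 and 323 CPM in sgRosa replicates 1 to 3, 74.3 CPM in replicate 4 and 293, 246 and 277 CPM in sgNr2f2, and its log2 fold change went from 0.29 to 0.00 without replicate 4. Of the membrane anchors, Sdhc had 47.4, 55.2, 47.2 and 72.5 CPM against 46.8, 34.3 and 45.7 CPM, groups that did not overlap but met within 1 CPM (log2 fold change -0.40, SE 0.38, and -0.24 without sgRosa replicate 4). Sdhd had 26.3, 33.4, 28.4 and 8.45 CPM against 12.4, 18.2 and 29.1 CPM, with overlap (-0.28, SE 0.52, and -0.56 without that library). The intervals of all 4 genes include 0.

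In complex III, 8 of 9 members were lower with all libraries and 6 of 9 without sgRosa replicate 4. Uqcr10, one of the smallest subunits, had 41.5, 74.9, 67.4 and 132 CPM in sgRosa and 41.1, 41.4 and 39.0 CPM in sgNr2f2, without overlap but with sgRosa replicate 1 at the edge (log2 fold change -0.96, SE 0.46, adjusted p = 0.868 by edgeR, and -0.60 without sgRosa replicate 4). Uqcr11, likewise very small, had 42.6, 70.5, 67.8 and 110 CPM against 45.2, 44.0 and 39.5 CPM (-0.76 and -0.49). Uqcrb, known as a ubiquinone-binding protein of the complex, had 48.8, 50.6, 52.9 and 19.6 CPM against 17.3, 37.1 and 30.3 CPM (-0.61, and -0.85 without sgRosa replicate 4). In Uqcr10 and Uqcrb every sgNr2f2 library lay below sgRosa replicates 1 to 3, and in Uqcr11 sgRosa replicate 1 lay within the sgNr2f2 range. Uqcrh, the acidic hinge protein, had 91.1, 174, 178 and 163 CPM against 112, 85.5 and 125 CPM (-0.49 and -0.46). The other accessory subunit, Uqcrq, the Rieske iron-sulfur protein Uqcrfs1 and the second core protein Uqcrc2 had log2 fold changes of -0.41, -0.41 and 0.06 with all libraries, and of 0.09, -0.02 and -0.08 without sgRosa replicate 4.

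Uqcrc1, a large core protein of complex III related to mitochondrial processing peptidases (chr9:108936648-108949641), had 115, 137, 138 and 701 CPM in sgRosa and 183, 166 and 165 CPM in sgNr2f2. Against sgRosa replicates 1 to 3 every sgNr2f2 library was higher, and against replicate 4 every one was lower. Its log2 fold change was -0.67 (SE 0.69) with that library and 0.40 (SE 0.26, unadjusted p = 0.155, adjusted p = 0.623 by edgeR) without it. Cyc1, the cytochrome c1 subunit, named after its values were seen, had 46.9, 52.1, 51.7 and 198 CPM against 69.6, 67.6 and 64.4 CPM and log2 fold changes of -0.37 and 0.42. Cycs itself, the soluble carrier between complexes III and IV, had 22.4, 33.6, 35.4 and 66.6 CPM against 30.8, 37.1 and 32.6 CPM, with changes of -0.24 and 0.14.

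Among complex IV genes, Cox4i1, the ubiquitous isoform of the largest nuclear subunit, had the highest level of all members per length, 1047 CPM per kb of transcript on average. It was measured at 329, 699, 857 and 1513 CPM in sgRosa and at 721, 481 and 861 CPM in sgNr2f2, and the groups overlapped (log2 fold change -0.30, 95% confidence interval -1.62 to 1.01, and 0.13 without sgRosa replicate 4). Next was Cox6a1, the isoform of Cox6a found outside muscle, at 539 CPM per kb. Cox6a1 had 217, 422, 427 and 103 CPM against 300, 228 and 458 CPM (0.17 and -0.11). Of all 7 libraries, sgRosa replicate 4 held the highest Cox4i1 and the lowest Cox6a1.

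Cox6c, Cox7b, Cox6b1 and Cox7a2 are small nuclear subunits around the catalytic core. Cox6c had 73.2, 147, 151 and 70.9 CPM in sgRosa and 70.1, 61.9 and 73.4 CPM in sgNr2f2 (log2 fold change -0.69, and -0.85 without sgRosa replicate 4). Cox7b had 37.0, 56.1, 57.4 and 22.6 CPM against 29.4, 25.5 and 35.6 CPM (-0.52 and -0.73). Their sgNr2f2 libraries lay near the lowest sgRosa libraries and below the other sgRosa libraries. Cox6b1, which joins the monomers of the dimer, had 84.9, 113, 130 and 95.5 CPM against 61.8, 66.5 and 89.8 CPM (-0.54 and -0.59). Cox7a2 had 58.2, 100, 98.8 and 96.8 CPM against 58.1, 48.4 and 67.2 CPM (-0.61 and -0.57). Cox6b1 and Cox7a2 overlapped between groups through sgRosa replicate 1. Cox5a, a matrix-side subunit, had 71.5, 75.3, 87.5 and 270 CPM against 49.6, 80.6 and 78.1 CPM (-0.86, and -0.17 without sgRosa replicate 4). Ndufa4, named after its values were seen, had 84.9, 92.8, 99.7 and 91.2 CPM against 55.2, 65.8 and 75.5 CPM. It was one of the 6 members without overlap (-0.49, SE 0.38, and -0.50 without sgRosa replicate 4). Cox5b, which binds zinc, had a log2 fold change of -0.58, and of -0.13 without sgRosa replicate 4.

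Cox7c, a single-isoform small subunit (chr13:86044798-86046795), was the member that DESeq2 called without sgRosa replicate 4, and is named after its values were seen. It had 45.9, 78.3, 89.8 and 5.32 CPM in sgRosa and 26.5, 29.3 and 31.8 CPM in sgNr2f2. All sgNr2f2 libraries lay below sgRosa replicates 1 to 3 and far above replicate 4. Its log2 fold change was -0.91 (SE 0.73, adjusted p = 0.882 by edgeR) with all libraries. Without that library it was -1.29 (SE 0.30, adjusted p = 0.235) by edgeR and -1.26 (SE 0.33, adjusted p = 0.0139) by DESeq2. Of the 50-base windows of its transcript, 53.0% also lie in other annotated genes.

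**Figure D3:**
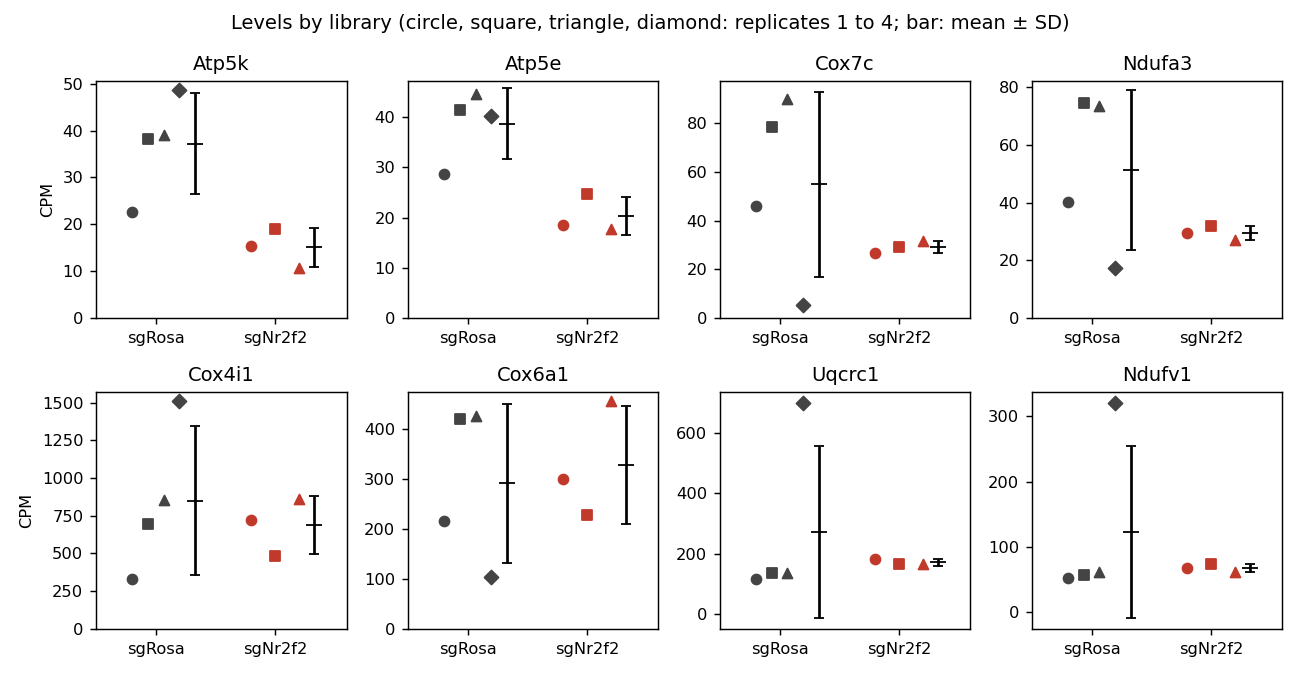
CPM of 8 members in each library, sgRosa in grey and sgNr2f2 in red, with a different marker for each replicate number and the mean ± SD beside them (n = 4 and 3). Atp5k and Atp5e do not overlap between groups, Cox7c and Ndufa3 overlap only through the low sgRosa replicate 4 (diamond), and for Uqcrc1 and Ndufv1 that library lies far above the other 6.

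The tissue isoforms of complex IV were far below the widely expressed forms. Cox4i2, the isoform of lung and hypoxic cells, was at 2.99 CPM per kb, and Cox7a1 and Cox6a2, the heart and muscle isoforms, were at 4.15 and 4.50 CPM per kb, against 114 CPM per kb for Cox7a2. Cox4i2 had 0.938, 1.79, 0.952 and 7.90 CPM in sgRosa and 1.57, 0.729 and 1.33 CPM in sgNr2f2 (log2 fold change -1.22, and -0.02 without sgRosa replicate 4). Cox7a1 was between 0.908 and 3.27 CPM (-0.55 and -0.18) and Cox6a2 between 0.340 and 6.27 CPM (0.07 and 0.67), with overlapping groups in both. Cox7a2l had 97.8, 194, 198 and 365 CPM against 172, 102 and 222 CPM (-0.37, and 0.02 without sgRosa replicate 4). Cox8a, the ubiquitous form of Cox8, had 79.6, 178, 135 and 97 CPM against 112, 90.0 and 179 CPM (0.05 and -0.04). The 4 members that did not pass the filter were all alternative isoforms. Cox8c, a testis isoform, had 0 counts in every library, which allows up to 0.143 to 0.479 CPM of the unscaled totals, depending on the library (3 counts in each, counting error only). Cox8b had 0 to 11 counts per library, Cox7b2 0 to 6 and Cox6b2 2 to 16.

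Complex V held the member with the smallest p. Atp5k, subunit e of the membrane part, which takes part in holding ATP synthase dimers together (chr5:108433246-108434399), had 22.6, 38.2, 39.0 and 48.7 CPM in sgRosa and 15.4, 19.1 and 10.7 CPM in sgNr2f2. Every sgNr2f2 library was below every sgRosa library. The means were 37.1 ± 10.8 CPM (SD, n = 4) and 15.1 ± 4.18 CPM (SD, n = 3), and the log2 fold change was -1.30 (SE 0.42, 95% confidence interval -2.24 to -0.36, unadjusted p = 0.0112, adjusted p = 0.868 in edgeR's test). Without sgRosa replicate 4 it was -1.14 (SE 0.31, adjusted p = 0.251). Atp5e, the epsilon subunit of the central stalk (chr2:174461075-174464101), had 28.5, 41.3, 44.6 and 40.2 CPM against 18.5, 24.7 and 17.7 CPM, again without overlap. Its log2 fold change was -0.93 (SE 0.37, adjusted p = 0.868 by edgeR), and -0.91 without that library. Atp5k and Atp5e are thus members whose position hardly depended on sgRosa replicate 4, which lay among or near the other sgRosa libraries in both.

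Atp5j2, subunit f, had 45.4, 71.2, 73.6 and 160 CPM in sgRosa and 41.4, 51.2 and 38.9 CPM in sgNr2f2 (log2 fold change -0.99, and -0.53 without sgRosa replicate 4). Atp5sl, now Dmac2, had 11.5, 11.6, 11.9 and 48.2 CPM against 8.78, 12.5 and 10.2 CPM (-0.98 and -0.15), a difference that stood almost wholly on 1 library. The abundant subunits lay elsewhere. Atp5b, the catalytic beta subunit, had 272, 369, 500 and 143 CPM against 369, 334 and 411 CPM (0.21, and -0.03 without sgRosa replicate 4). Atp5j, coupling factor 6 of the peripheral stalk, had 169, 262, 314 and 131 CPM against 190, 190 and 238 CPM (-0.09 and -0.27). For neither gene were the groups separated. The other 8 members of complex V, Atp5a1 (alpha), Atp5c1 (gamma), Atp5d (delta), Atp5f1 (subunit b), Atp5h (d), Atp5l (g), Atp5o (the oligomycin-sensitivity protein) and Atp5s, had log2 fold changes from -0.55 to -0.18, and from -0.65 to 0.37 without sgRosa replicate 4.

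The 3 genes Atp5g1, Atp5g2 and Atp5g3 encode the c subunit, whose ring turns in the membrane as protons pass. Their mature parts are shown because they code for the same residues in different letters, which bears on whether reads can be assigned to 1 of the 3 genes. The last 225 coding bases of each, from the GENCODE transcripts of GRCm38, read as follows, with capitals at positions where the 3 genes are not all alike.
Atp5g1: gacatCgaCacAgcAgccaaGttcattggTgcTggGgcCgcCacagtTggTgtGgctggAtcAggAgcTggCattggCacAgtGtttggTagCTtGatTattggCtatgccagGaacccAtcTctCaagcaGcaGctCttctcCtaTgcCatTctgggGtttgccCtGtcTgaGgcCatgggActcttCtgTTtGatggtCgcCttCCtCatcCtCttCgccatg
Atp5g2: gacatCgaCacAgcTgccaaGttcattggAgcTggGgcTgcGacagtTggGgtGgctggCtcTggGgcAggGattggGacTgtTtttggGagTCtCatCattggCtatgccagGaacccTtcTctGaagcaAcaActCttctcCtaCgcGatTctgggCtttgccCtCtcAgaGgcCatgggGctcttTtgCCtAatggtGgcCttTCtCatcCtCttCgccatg
Atp5g3: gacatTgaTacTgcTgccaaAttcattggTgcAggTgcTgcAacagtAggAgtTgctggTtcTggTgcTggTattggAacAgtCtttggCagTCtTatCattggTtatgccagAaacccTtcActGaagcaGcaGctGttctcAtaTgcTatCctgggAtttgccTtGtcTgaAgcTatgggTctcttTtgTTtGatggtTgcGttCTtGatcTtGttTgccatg
All 75 encoded residues were identical, while Atp5g1 and Atp5g2 shared 191 of 225 bases, Atp5g1 and Atp5g3 shared 180, and Atp5g2 and Atp5g3 shared 177. The longest runs without a difference were 20, 11 and 8 bases in that order.

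Atp5g3 had 49.8, 58.3, 65.0 and 49.1 CPM in sgRosa and 43.2, 52.8 and 57.8 CPM in sgNr2f2 (log2 fold change -0.11, 95% confidence interval -0.93 to 0.70, and -0.17 without sgRosa replicate 4). Atp5g1 had 22.3, 30.3, 26.4 and 55.5 CPM against 28.3, 26.8 and 32.9 CPM (-0.19 and 0.16). Atp5g2 had 1.92, 2.87, 2.79 and 0.954 CPM against 2.06, 2.35 and 3.39 CPM (0.27 and 0.04). The groups overlapped in all 3. Per length, Atp5g3 was at 75.2, Atp5g1 at 53.3 and Atp5g2 at 5.29 CPM per kb.

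That last level is uncertain because of copies outside the family. All 50-base windows of the Atp5g2 transcript (100%) also occur in another annotated gene, the pseudogene Gm10175, as do 66.0% of the windows of Atp5g1, most of them in the pseudogene Gm10039, and 0% of those of Atp5g3. Atp5l, subunit g, had 84.8% of its windows in 14 other genes, 12 of them pseudogenes, and a level of 11.1 CPM per kb. Atp5h, subunit d, had 66.6%, Cox7c 53.0%, Uqcrb 43.4% and Ndufs5 41.2%. How the authors counted reads that fit several places is not given in the sources used here, so the levels of these genes may be too low and their copies may hold some of their reads. A high shared percentage did not always go with a low level, as Atp5h stood at 212 CPM per kb. The transcripts used for Atp5g2 (441 nt, 438 of them coding) and Atp5h (486 nt, 483 coding) hold almost no untranslated bases. That of Atp5g3 has 714 nt, 423 of them coding. The shared percentages and levels per length of Atp5g2 and Atp5h are thus not on a like basis with those of fuller transcripts.

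**Figure D4:**
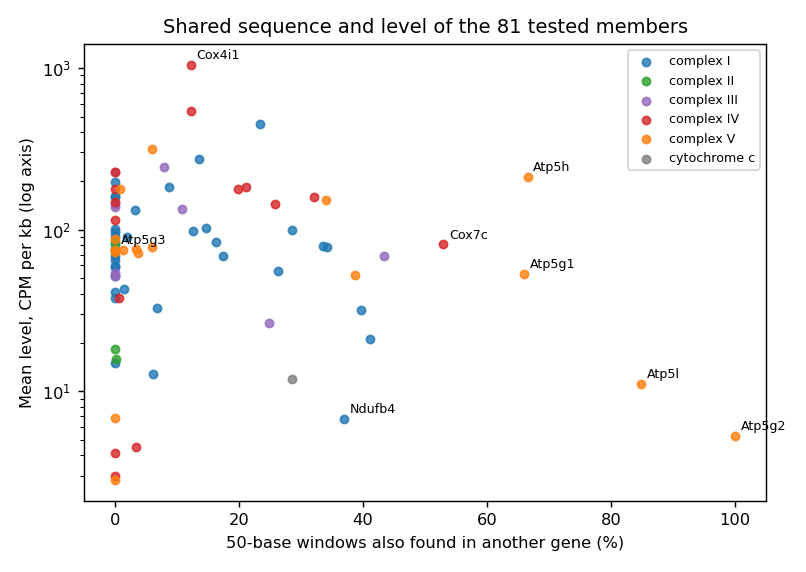
Mean level over the 7 libraries in CPM per kb of transcript (log axis) against the percentage of 50-base windows of the transcript that also occur in another annotated gene, for the 81 tested members, coloured by complex. Atp5g2 and Atp5l, with over 80% shared, lie at the low end of the levels, while Atp5h at 66.6% lies among the high ones. The transcripts used for Atp5g2 and Atp5h hold almost only coding bases.

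sgRosa replicate 4 departed from the other sgRosa libraries gene by gene, and in both directions. Against the mean log2 level of sgRosa replicates 1 to 3, 39 of the 81 members were over 2-fold higher in it and 15 were over 2-fold lower, and the SD of the log2 differences over the members was 1.41. Each of those 3 replicates, set against the other 2, gave an SD between 0.172 and 0.389, and each sgNr2f2 library against all 3 gave between 0.333 and 0.503. On the log2(CPM + 0.5) scale of these differences, the members at the ends, named after their values were seen, were Ndufv1, the NADH-binding core subunit, at 2.49 and Uqcrc1 at 2.43. At the other end were Cox7c at -3.57, Ndufs1, an iron-sulfur core subunit, at -3.21 and Ndufb3, an accessory subunit, at -2.97. The log2 fold changes of sgNr2f2 against sgRosa were -0.855 for Ndufv1 and 0.21 for Ndufs1, and 0.26 and -0.15 without sgRosa replicate 4. Ndufv1 and Ndufs1 sit beside each other in the peripheral arm of complex I and lay at opposite ends: Ndufv1 at 51.5, 57.4, 61.4 and 321 CPM in sgRosa replicates 1 to 4 and Ndufs1 at 33.6, 44.5, 41.5 and 3.82 CPM.

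These differences went with the base composition of the transcripts. The median log2 difference of sgRosa replicate 4 from replicates 1 to 3 was -0.74 for the 10 members with under 46% G and C, 0.35 for the 20 members from 46% to 50%, 1.16 for the 22 from 50% to 54%, 1.27 for the 21 from 54% to 58% and 1.36 for the 8 members at 58% or more. Over all genes tested, the medians in the same classes were -1.13, -0.59, 0.02, 0.57 and 1.17, below those of the members in each class. Across the 81 members Spearman's rho between this difference of sgRosa replicate 4 and GC content was 0.447, and across 12901 genes of the whole table it was 0.447 as well. These are correlations across genes of the same libraries, and genes are not independent replicates. The contrast can be seen in the letters of Cox7c and Ndufv1, whose transcripts hold 46.7% and 56.7% G and C. The whole coding sequence of Cox7c without its stop codon (50.3%) and the first 189 coding bases of Ndufv1 (57.1%, chr19:4007499-4012755) are given with G and C in capitals.
Cox7c: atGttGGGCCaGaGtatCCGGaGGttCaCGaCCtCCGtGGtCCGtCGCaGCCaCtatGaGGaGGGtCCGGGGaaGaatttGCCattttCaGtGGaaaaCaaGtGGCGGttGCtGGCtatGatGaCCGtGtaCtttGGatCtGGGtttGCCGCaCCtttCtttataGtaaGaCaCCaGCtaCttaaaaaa
Ndufv1: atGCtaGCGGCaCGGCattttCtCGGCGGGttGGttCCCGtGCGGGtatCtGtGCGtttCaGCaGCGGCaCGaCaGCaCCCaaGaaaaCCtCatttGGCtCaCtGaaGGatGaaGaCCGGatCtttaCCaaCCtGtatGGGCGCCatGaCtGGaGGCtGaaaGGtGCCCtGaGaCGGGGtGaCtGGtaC

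In the other 6 libraries the fold changes of the members went with coding length and with GC content. Without sgRosa replicate 4, Spearman's rho across the 81 members between log2 fold change and coding length was 0.587, and across 12695 genes it was 0.103. With the length of the whole transcript in place of coding length, rho was 0.433 across the members and 0.063 across those genes. Between log2 fold change and GC content, rho was 0.408 across the members and 0.392 across the same 12695 genes. The median of all genes was -0.28 under 46% G and C and 0.35 at 58% or more. The medians of the members in these classes were -0.44 and -0.09. Of the 20 tested members with coding sequences under 300 nt, 18 were lower, with a median log2 fold change of -0.56, and of the 17 members from 300 to 400 nt, 15 were lower, with a median of -0.30. Of the 25 members from 400 to 700 nt, 16 were lower, with a median of -0.05, and of the 19 members of 700 nt or more, 10 were lower, with a median of -0.02. All 13 members at an unadjusted p under 0.05 had coding sequences under 400 nt. They were 7 of complex I, 1 of complex III, 3 of complex IV and 2 of complex V.

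The same classes over all genes showed the slope in a weaker form, with medians of -0.29 under 300 nt, -0.19 from 300 to 400 nt, -0.08 from 400 to 700 nt and 0.00 at 700 nt or more. In the same order, 72.5%, 67.0%, 56.5% and 50.2% of all genes were lower, where 90.0%, 88.2%, 64.0% and 52.6% of the members were. Of all genes under 300 nt, 42 of 247 were lower at an unadjusted p under 0.05 in edgeR's test, and of those from 300 to 400 nt 32 of 351, where 7 of 20 and 6 of 17 members were. With a length offset per library, fitted on all genes after the pattern was seen, 42 of 81 members were lower without sgRosa replicate 4, where 46% of all genes were, and the medians were -0.01 and 0.05. With a GC offset in its place 54 members were lower, where 44.3% of all genes were, and the medians were -0.15 and 0.07. On all 7 libraries the length offset left 64 of 81 members lower, where 54.8% of all genes were, with medians of -0.32 and -0.08. The GC offset there left 71 lower, where 52.4% of all genes were, with medians of -0.49 and -0.04. With all 7 libraries and no offset, rho between log2 fold change and coding length was 0.25 across the members and 0.196 across 12901 genes. Length and role go together among these genes, since most catalytic subunits are long and most accessory subunits short, so that the part of either in the lower levels cannot be told apart here. The length classes were set after the values were seen.

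**Figure D5:**
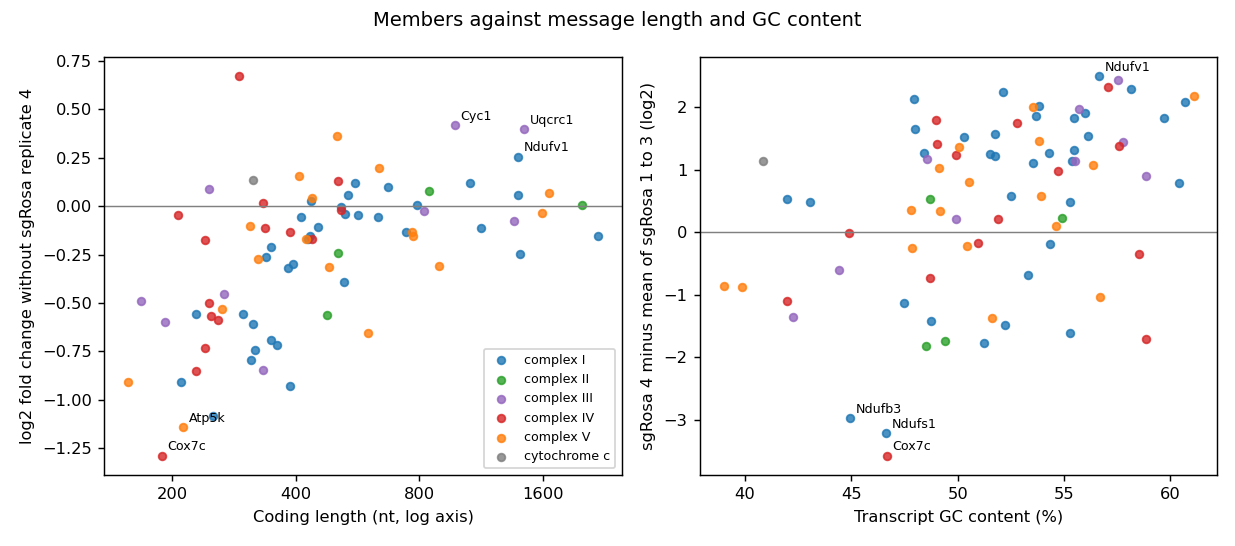
Left, log2 fold change of each tested member without sgRosa replicate 4 against coding length (log axis), and right, the log2 difference of sgRosa replicate 4 from the mean of sgRosa replicates 1 to 3 against transcript GC content, both coloured by complex. At left the members below -0.5 are nearly all short (rho 0.587), and at right the members with the highest GC content lie mostly above 0 (rho 0.447).

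The abundant members also varied between libraries of the same group. Cox4i1, Cox6a1, Ndufb9, Cox8a and Cox7a2l were lower in sgRosa replicate 1 and sgNr2f2 replicate 2 than in any other library of their group among replicates 1 to 3, a set named after the values were seen. The summed level of each of the 5 complexes was lowest in the same libraries, so the pattern is not particular to these genes. The same libraries had the highest TMM factors of the 6, 1.39 and 1.08, and a higher factor lowers every scaled level. Those were also the libraries with the lowest oligodendrocyte marker level of these 6, with summed levels of 97420 and 165500 CPM over 9 of 9 markers against 314340 to 407260 CPM in the other 4, and none of these 9 was at 0 in any library. sgRosa replicate 4, with 22910 CPM, broke this order for Cox4i1, Ndufb9 and Cox7a2l, in which it was the highest sgRosa library. Summed neuron markers, 10 of 10 detected, were at 394 to 1286 CPM in sgRosa, highest in replicate 4, and at 421 to 542 CPM in sgNr2f2. Those of red blood cells, 5 of 5 detected, were at 1049 to 31591 CPM, again highest in replicate 4, and at 1051 to 1464 CPM in sgNr2f2. Pericyte and smooth muscle markers, 5 of 5 lower in sgNr2f2 with or without sgRosa replicate 4, summed to 114 to 357 CPM in sgRosa and to 78.1 to 242 CPM in sgNr2f2. Kcnj8 was at 0 in sgRosa replicate 4. The oligodendrocyte precursor markers, 3 of 3 lower and 2 of 3 without that library, summed to 11.1 to 17.3 and 4.37 to 17.0 CPM, and microglia markers, 4 of 6 and 3 of 6 lower, to 10.5 to 32.8 and 21.4 to 28.9 CPM, with Cx3cr1 at 0 in sgRosa replicate 4 and P2ry12 at 0 in sgNr2f2 replicate 2. Choroid plexus and ependyma markers, 2 of 4 lower and 4 of 4 without sgRosa replicate 4, summed to 8.30 to 895 and 66.9 to 501 CPM, with Folr1 and Foxj1 at 0 in sgRosa replicate 4. The ranges of astrocyte markers (5 of 7 lower, and 6 of 7 without that library) and endothelial markers (2 of 6 and 1 of 6 lower) overlapped as well. Oligodendrocyte markers were higher in sgNr2f2 for 9 of 9 with or without sgRosa replicate 4 (median log2 fold changes 0.57 and 0.26). Neuron markers were lower for 8 of 10, and for 6 of 10 without that library (-0.60 and -0.25). Red blood cell markers were lower for 5 of 5 in both (-2.64 and -0.61). The part of these cell types in the member levels was not tested.

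Other genes of the pathway were read from lists of subunits, assembly factors and regulators, and none of their genes passed the adjusted threshold in edgeR's test. Of 6 tested genes from a list of subunits whose symbols fall outside the rule, 5 were lower, with a median log2 fold change of -0.83 and of -0.84 without sgRosa replicate 4. The list also held Atpif1, the inhibitory factor of complex V (-0.83 and -0.31), and Higd2a (0.11 and 0.15), which are not subunits. Usmg5, the DAPIT subunit of ATP synthase, had 19.4, 36.8, 39.5 and 14.9 CPM in sgRosa and 13.5, 18.7 and 14.4 CPM in sgNr2f2, and 2010107E04Rik, a proteolipid of the same complex, had 24.2, 41.7, 46.5 and 33.7 CPM against 16.8, 20.4 and 14.9 CPM. The groups overlapped for the first gene and not for the second. Both encode very short membrane subunits of complex V, as Atp5k does. Of the 13 assembly factors of complex I, 10 were lower (median -0.41, and -0.23 without that library). Of the 13 assembly factors of complexes II, III and V, 11 were lower (-0.38 and -0.20), and of 18 tested for complex IV, 15 (-0.29 and -0.13). Ndufaf4, a complex I assembly factor, had 16.7, 14.5, 17.1 and 15.7 CPM against 8.12, 9.70 and 9.87 CPM, without overlap (-0.79, SE 0.36, unadjusted p = 0.0495, adjusted p = 0.868 by edgeR, and -0.80 without sgRosa replicate 4).

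Of the 12 tested subunits encoded in mitochondrial DNA, 11 were lower, with a median of -0.48 and of -0.56 without sgRosa replicate 4. ND3, a complex I subunit, had 22.2, 27.4, 34.8 and 29.8 CPM in sgRosa and 10.4, 15.8 and 10.5 CPM in sgNr2f2, without overlap (log2 fold change -1.22, SE 0.38, unadjusted p = 0.00918, adjusted p = 0.868 by edgeR, and -1.20 without sgRosa replicate 4). Of the abundant mitochondrial messages, ND1 did not overlap between groups, with 26350, 26260, 38430 and 33530 CPM against 16420, 20360 and 26050 CPM (-0.57, SE 0.66, unadjusted p = 0.409 by edgeR, and -0.54 without sgRosa replicate 4). CYTB overlapped, with 57410, 59080, 83370 and 21910 CPM against 49120, 62560 and 66160 CPM (0.10, and -0.17 without sgRosa replicate 4). ND2, ND6, ND4, COX1 and ND5 had log2 fold changes of -0.39, -0.34, -0.18, -0.10 and -0.02. Without that library these were -0.58, -0.43, -0.30, 0.00 and -0.21. ND3 itself, and ATP6, COX2, COX3 and ND4L between 0 and 5.58 CPM, lay far under ND1, ND2 and CYTB from the same genome. Nuclear copies of mitochondrial DNA hold much of the same sequence, so the fold changes of these low genes are uncertain. Those fold changes ran from -2.35 to -0.79 and were the lowest of the 12, so the median of the list rests partly on them. The citric acid cycle and pyruvate genes (9 of 19 lower, median 0.03) and the regulators of mitochondrial biogenesis (5 of 14 lower, median 0.07) had medians just above 0. Without sgRosa replicate 4 their medians were -0.17 and 0.05.

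Promoters were available from RefSeq (GRCm38.p6) for 70 members, as 250 bases before to 50 after the start. They were searched on both strands for the letters of sites known in respiratory genes. The NRF1 letters GCGCANGCG were in 28.6% of the member promoters, in 13.2% of those of 10855 tested genes and in 6.47% of 27025 promoters in all. The YY1 letters AAGATGGC were in 14.3%, 4.50% and 2.88%, the CREB letters TGACGTCA in 7.14%, 3.31% and 1.88%, the ESRRA letters TCAAGGTCA in 2.86%, 0.27% and 0.41%, and the GABPA letters CCGGAAGT in 7.14%, 7.64% and 4.00%. The half-site AGGTCA, the letters that Nr2f2 and many other nuclear receptors bind in pairs, was in 22.9% of member promoters, 11.9% of those of tested genes and 16.04% of all. It lies within the ESRRA letters, so that a promoter with the second also counts for the first. A match is a description of letters and not a site.

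Of the 3 members with an unadjusted p under 0.05 in all 7 libraries, Atp5k, Atp5e and Ndufb2, each had a half-site in its window, where 16 of 70 member promoters did. Half-sites also lay in the windows of Ndufa5 (log2 fold change -1.21), Atp5g3 (-0.11) and Sdhb (0.02). None lay in those of Ndufc1 (-1.12), Atp5j2 (-0.99) and Uqcr10 (-0.96). Whether the half-site goes with the fold change was not tested. The promoter of Atp5k (chr5:108434350-108434649, minus strand) is shown as that of the member with the smallest p, with an NRF1 match, which reads on both strands, and then the half-site in capitals. That of Cycs (chr6:50566520-50566819, minus strand), with a CREB match and an NRF1 match in capitals, is set beside it as a gene with the NRF1 letters and no half-site, whose log2 fold change was -0.24.
Atp5k: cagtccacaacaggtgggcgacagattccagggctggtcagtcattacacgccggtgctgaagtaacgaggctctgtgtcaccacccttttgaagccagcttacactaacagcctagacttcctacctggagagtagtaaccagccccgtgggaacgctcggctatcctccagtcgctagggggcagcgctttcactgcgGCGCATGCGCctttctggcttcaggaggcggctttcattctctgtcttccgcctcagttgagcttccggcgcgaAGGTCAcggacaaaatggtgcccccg
Cycs: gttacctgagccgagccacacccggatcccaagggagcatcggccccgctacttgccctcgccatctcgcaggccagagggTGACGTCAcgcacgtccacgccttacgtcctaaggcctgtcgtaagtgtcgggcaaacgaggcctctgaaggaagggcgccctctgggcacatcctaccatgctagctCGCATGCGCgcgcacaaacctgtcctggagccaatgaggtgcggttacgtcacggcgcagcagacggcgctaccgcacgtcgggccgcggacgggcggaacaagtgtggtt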

How the data were processed

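Whole-number counts per symbol, not normalized, were deposited by the authors for 7 libraries, in 1 table and in 7 single files with the same values. Per the submitters' processing notes the tools included STAR 2.7.5c, featureCounts 2.0.1, edgeR 3.42.4, fastp 0.23.2, MultiQC 1.11 and FastQC 0.11.9, with build mm10. Annotation, strand and multi-mapping settings: not given in the sources used here. No molecular identifiers are named, so precision statements cover counting error only. Here, counts were fitted with edgeR 4.0.16 in R 4.3.3 (quasi-likelihood F test, TMM factors, edgeR's low-count filter, group as the only term, Benjamini-Hochberg adjustment over 14412 genes, threshold 0.05). Fold changes are sgNr2f2 against sgRosa. Alternatives used DESeq2 1.42.0, limma 3.58.1, other scalings, offsets for length or GC content (loess span 0.5) and the omission of each library. Replicate numbers were not taken as pairs, since the labels do not say what a number marks and same-numbered libraries did not deviate together.

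The genes named are, within each complex, the 2 with the highest mean CPM and the 4 with the smallest p (all of complex II), Cycs, the paralog families of Cox4, Cox6a, Cox6b, Cox7a, Cox7b, Cox8 and Atp5g, and Nr2f2. Any other member named, and the genes named from lists outside the members, were chosen after their values were seen. The values of 1 member are not reported here. The members and lists were chosen with earlier results of these data known. Coordinates are from RefSeq (GRCm38.p6) and transcript lengths, GC content and 50-base windows from GENCODE transcripts of GRCm38, both of which cover all 85 members. RefSeq matched 32501 of the 35976 symbols.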

Additional observations from a re-analysis of the deposited data

Results flagged for a closer look

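In 37 named members and in the summed levels of all members and of the 5 complexes, the highest or lowest of the 4 sgRosa libraries was set against the nearest other one, as a share of the group's range, and 6 of 43 groups were above Dixon's 95% critical value for 4 samples, which chance exceeds in about 1 in 20 groups. sgRosa replicate 4 was the highest library in Atp5sl (0.989), Uqcrc1 (0.961), Cox5a (0.919) and Cox4i2 (0.878) and the lowest in Uqcrb (0.875). In Cox7a2 the library standing apart was sgRosa replicate 1, the lowest (0.916). Over all 81 tested members, 21 exceeded the critical value.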

How the results depend on the processing

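edgeR, DESeq2, limma-voom, other scalings, the absence of a low-count filter and the omission of any 1 library each left 0 members past the adjusted threshold. DESeq2 without sgRosa replicate 4 called 1, Cox7c. With library size as the only scaling the median log2 fold change moved to -0.71 for the members and -0.33 for all genes, and the split of all genes at an unadjusted p under 0.05 went from 407 lower and 314 higher to 621 and 127. With a coding-length offset and without sgRosa replicate 4, chosen after seeing the data, 42 members and 46% of all genes were lower, with medians of -0.0085 and 0.0486, and the medians of complexes I, III and IV were -0.0238, 0.0349 and 0.0743. With a GC offset in the same 6 libraries those of I and III were -0.2245 and -0.0951. On all 7 libraries the length offset left 64 members lower and the GC offset 71, where 54.8% and 52.4% of all genes were. Without sgRosa replicate 4, DESeq2 gave -0.1295, -0.0458 and -0.1409 for complexes I, III and IV, and limma-voom -0.1601, -0.0688 and -0.1433. Leaving out 1 library at a time, the median of complex I ran from -0.86 to -0.1546 and that of complex III from -0.6445 to -0.0765, both nearest 0 without sgRosa replicate 4.

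The fit with a replicate block, on replicates 1 to 3, gave 59 lower members, a median of -0.1592, 0 calls, and medians of -0.1592 and -0.0726 for complexes I and III. Same-numbered libraries correlated at -0.266, -0.328 and 0.059 in their deviations, and differently numbered ones at -0.141 to 0.365. With 3 libraries in a group, these values cannot exclude that a number marks a pair, and the labels do not say.

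Of 740 comparisons of 37 named members over 20 settings, 94 changed sign, and those that moved by more than the standard error are given here. Uqcrc1 ran from -0.9337 to 0.3994 when 1 library was left out, and was 0.2823 under limma-voom with quality weights, 0.4024 under the replicate block and, without sgRosa replicate 4, 0.4273 by DESeq2, 0.3976 by limma-voom, 0.5097 with the length offset and 0.2258 with the GC offset. Cox4i2 was 0.0094 with quality weights and 0.0059 by DESeq2 and 0.1072 with the length offset without that library. With that length offset, Atp5g1 was 0.325, Cox7a1 0.1567, Cox7a2l 0.2457 and Cycs 0.3855, and Cycs was 0.5777 with the GC offset. The cause was not tested. A length offset from protein lengths was planned and not run, and coding lengths of GENCODE transcripts were used in its place. Low levels such as Cox4i2, Cox6a2 and Cox7a1 limit what these counts can show.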
